A study of Mus musculus with 46 samples.

Results

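The complement genes described here are C3, C4b, Cfb, C2, Cfp, Serping1, C3ar1 and C5ar1, taken from each table by gene symbol. All 8 were listed in each of the 3 tables of FPKM (fragments per kilobase of exon, scaled to the mapped reads of each library) that the study's 46 mouse libraries fall into, among 15695 genes in the subventricular zone (SVZ) table, 15285 in the table of white matter (WM) repopulation and LPS, and 19930 in the GLOBAL repopulation table. Complement is a cascade of serum and locally made proteins in which C3 is cleaved to tag targets for uptake and to release small peptides that signal to myeloid cells. C4 and C2 form the C3 convertase of the classical and lectin pathways, factor B (Cfb) forms that of the alternative pathway, properdin (Cfp) stabilises the alternative convertase, and Serping1 encodes C1 inhibitor, which blocks the first proteases of the cascade. C3ar1 and C5ar1 encode the receptors for the C3a and C5a peptides. In brain, microglia and other myeloid cells carry these receptors and are the main makers of C1q, while astrocytes are a known source of C4 and, in disease, of C3.

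All mice were male C57BL/6, aged 2 months in the LPS and GLOBAL experiments and 1.5 months where no other age is stated. PLX3397, an inhibitor of CSF1R that also acts on KIT and FLT3, was given in chow at 600 ppm to remove microglia, after which control chow allowed cells to return. The SVZ table holds microdissected tissue from control mice, from mice at the end of 14 days on PLX3397, and from mice 5 days after its withdrawal (5 day recovery), with 5 libraries each. The other tables hold CD11b+CD45int cells sorted from whole hemispheres after 28 days of recovery. In one of them, cells that had filled the brain by WM repopulation, which follows 14 days of PLX3397, were compared with control cells, each from mice given no LPS (0 hr) or killed 6 or 24 hr after LPS, a bacterial cell wall component that drives innate immune signalling, injected at 0.33 mg/kg. The control groups have 3 (0 hr), 5 (6 hr) and 4 (24 hr) libraries and each WM group has 4. In the GLOBAL table, cells from GLOBAL repopulation, which follows 7 days of PLX3397, form 3 libraries and their own controls 4. WM and GLOBAL therefore differ in the days of drug and were normalised in separate tables, so no value is compared between them here. Mice of this experiment are described as injected with PBS or LPS and collected 6 or 24 hr later, with those that had no LPS called 0 hr. Repopulated and control cells were obtained with one gate that does not separate microglia from cells of other origin with the same markers.

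The step between the lowest FPKM values gave each library's rounded depth, from 4570000 to 10610000 reads in the SVZ table, from 5240000 to 10380000 in the WM and LPS table and from 2210000 to 5370000 in the GLOBAL table. The sorted libraries carried high levels of 9 microglial markers, with summed FPKM of at least 7053 in every library of the WM and LPS table, and also RNA of 7 neutrophil markers, with sums between 431 and 15234 in that table. All 8 genes of an LPS response list (Il1b, Tnf, Ccl5, Cxcl10, Lcn2, Saa3, Ifit1 and Il12b) were higher at 6 hr than at 0 hr in control and in WM cells, as the time labels say. Control 6 hr replicate 2 and control 24 hr replicate 4 were the 2 libraries that correlated least with the rest of their groups in that table (median r of 0.939 and 0.949). The study's methods give n as mice within a group, while the labels number the samples of a group without naming an animal.

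On chromosome 17 (GRCm38.p6, the assembly of the mm10 build) lie C4b at chr17:34728139-34743902, Cfb at chr17:34856374-34862514, C2 at chr17:34862602-34882100 and C3 at chr17:57203967-57228136. Cfb and C2 are separated by 87 bases and do not overlap. C4b has a near copy, the pseudogene C4a at chr17:34809092-34823460, and reads of one can be counted for the other. The values of C4b therefore carry an uncertainty that was not measured. C4a itself stayed at or below 0.331 FPKM in the WM and LPS table and was between 1.38 and 3.38 in the GLOBAL table, where C4b was between 2.03 and 5.80. Cfp is at chrX:20925454-20931555, Serping1 at chr2:84765360-84775444, C3ar1 at chr6:122847140-122856157 and C5ar1 at chr7:16246743-16259540.

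RefSeq promoters, from 250 bases before to 50 bases after the start site, were at hand for C3, Cfp, C3ar1 and C5ar1, and are shown because all 4 genes rose 6 hr after LPS. All are on the minus strand and written 5′ to 3′ in the direction of the gene, with motif matches in capitals. Both strands were searched for the kappaB letters GGGNNTTCC, the GAS letters TTCNNNGAA, the ISRE core GAAANNGAA and the AP-1 letters TGANTCA, where N is any base; these are held by 5.82%, 8.30%, 8.56% and 7.81% of the 32851 promoters in the RefSeq table.
C3 promoter, chr17:57228087-57228386: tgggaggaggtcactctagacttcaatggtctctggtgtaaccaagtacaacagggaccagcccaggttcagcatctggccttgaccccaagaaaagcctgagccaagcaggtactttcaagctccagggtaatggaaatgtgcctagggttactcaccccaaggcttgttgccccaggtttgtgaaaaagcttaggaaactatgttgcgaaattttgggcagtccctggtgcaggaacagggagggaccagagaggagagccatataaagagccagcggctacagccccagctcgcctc
Cfp promoter, chrX:20931506-20931805: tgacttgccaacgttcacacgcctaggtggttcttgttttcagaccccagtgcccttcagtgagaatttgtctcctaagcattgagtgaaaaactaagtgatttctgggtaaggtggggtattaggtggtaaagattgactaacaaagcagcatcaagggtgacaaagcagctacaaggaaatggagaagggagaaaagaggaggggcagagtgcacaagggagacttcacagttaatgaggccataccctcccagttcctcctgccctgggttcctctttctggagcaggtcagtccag
C3ar1 promoter, chr6:122856108-122856407: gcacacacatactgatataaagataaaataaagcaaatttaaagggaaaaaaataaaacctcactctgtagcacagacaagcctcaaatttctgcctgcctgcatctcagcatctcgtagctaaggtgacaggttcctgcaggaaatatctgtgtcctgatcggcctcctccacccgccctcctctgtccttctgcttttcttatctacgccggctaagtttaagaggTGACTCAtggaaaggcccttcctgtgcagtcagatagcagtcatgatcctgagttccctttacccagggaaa
C5ar1 promoter, chr7:16259289-16259588: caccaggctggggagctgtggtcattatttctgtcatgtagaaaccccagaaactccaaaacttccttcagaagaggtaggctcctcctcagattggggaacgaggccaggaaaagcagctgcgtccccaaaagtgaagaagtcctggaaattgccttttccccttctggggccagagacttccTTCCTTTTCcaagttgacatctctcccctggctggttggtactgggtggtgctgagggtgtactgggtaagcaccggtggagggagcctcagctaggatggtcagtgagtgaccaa
The C3ar1 promoter holds 1 AP-1 match, TGACTCA, whose letters also match on the other strand, and which begins 22 bases before the start site. The C5ar1 promoter holds 1 ISRE core match on the opposite strand, beginning 66 bases before the start site. No match to the 4 sets of letters lies in these windows of C3 and Cfp.

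In sorted cells without LPS, the receptors were the most abundant members by far. On the FPKM scale, which is per length, C5ar1 averaged 104 ± 4.41 (SD, n = 3) and C3ar1 97.7 ± 7.50 in control 0 hr cells, and 115 ± 11.8 and 89.7 ± 1.91 (n = 4) in WM 0 hr cells. Cfp followed with 6.92 ± 4.59 in control and 14.8 ± 3.45 in WM cells. C3 averaged 3.56 ± 3.26 and 3.52 ± 1.15, and Cfb and C4b lay near 1 or 2 FPKM (Cfb 0.995 ± 0.344 and 2.27 ± 1.07, C4b 0.787 ± 0.863 and 1.03 ± 0.944). C2 and Serping1 did not reach 1 FPKM in 3 libraries of this table and rested on 0 to 27 and 0 to 12 reads a library.

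C3, C4b, Cfb, Cfp, C3ar1 and C5ar1 were all higher 6 hr after LPS, while C2 and Serping1, which were too low for the fit across genes, gave no difference that passed a test. Limma was fitted to log2(FPKM + 1) over all genes at 1 FPKM or more in at least 3 libraries of a table, with p-values adjusted by Benjamini-Hochberg over all of them. Fold changes on this scale understate those of genes near or under 1 FPKM. At 6 hr all 6 tested members were higher than at 0 hr in control cells, where 42.5% of the 12684 tested genes passed the test in either direction, and all 6 were higher in WM cells, where 38.8% did. The 6 include C3, C4b, Cfb and Cfp, which encode secreted components, and both receptors. The median log2 change over the 6 was 2.72 in control and 2.48 in WM cells, beside medians over all tested genes of 0.01 and -0.00.

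**Figure D1:**
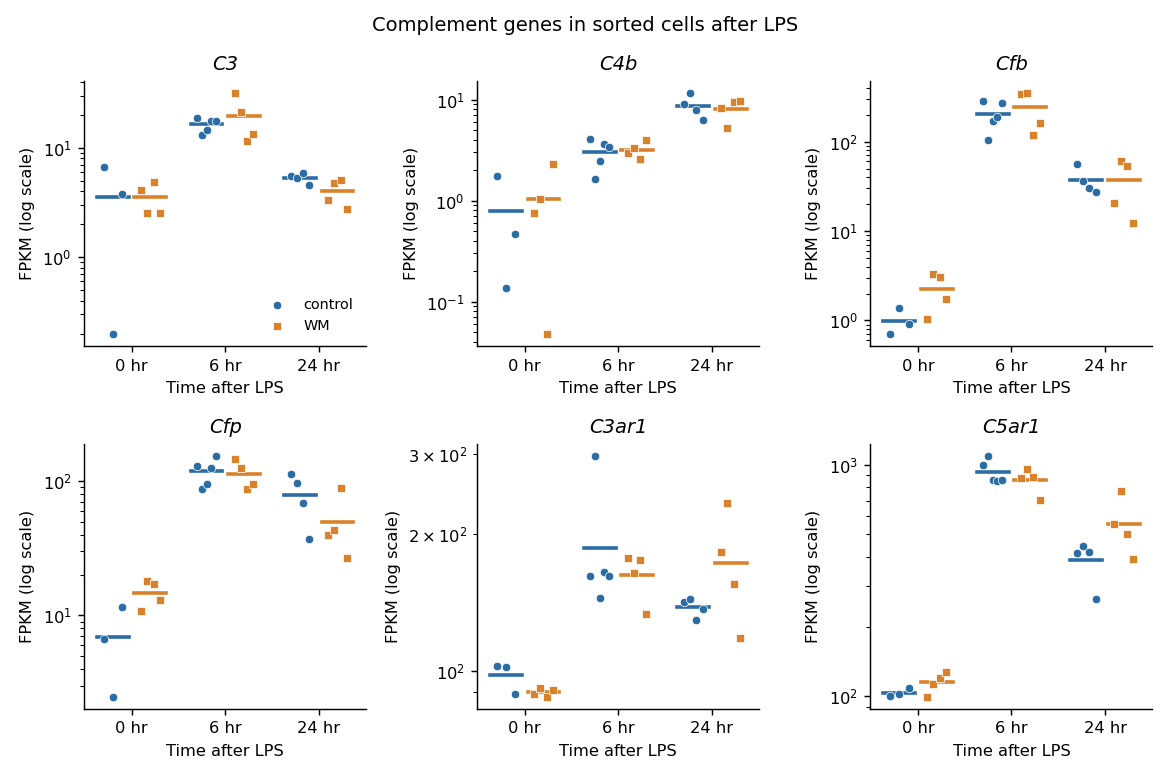
FPKM of the 6 tested complement genes in each library of sorted cells (log axis) at 0, 6 and 24 hr after LPS, with control libraries as circles, WM libraries as squares and group means as bars. The means of Cfb, C3, Cfp and C5ar1 are highest at 6 hr in both origins and those of C4b at 24 hr.

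Cfb showed the largest change of the 6. Its FPKM in control cells was 0.704, 1.37 and 0.907 at 0 hr, then 284, 103, 172, 191 and 272 at 6 hr, then 56.8, 35.9, 30.6 and 27.3 at 24 hr. In WM cells it was 1.04, 3.29, 3.04 and 1.73 at 0 hr, 338, 349, 119.7 and 162 at 6 hr, and 20.5, 60.5, 53.9 and 12.2 at 24 hr. The 3 times did not overlap in either origin, and Cfb went from the low single digits to being more abundant per length than C3ar1 in group mean at 6 hr. The log2 change from 0 to 6 hr was 6.61 ± 0.44 (SE) in control cells (adjusted p = 8.22e-11) and 6.13 ± 0.42 in WM cells (adjusted p = 1.55e-10). From 6 to 24 hr it fell by 2.38 ± 0.40 (adjusted p = 0.000101) and by 2.81 ± 0.42 (adjusted p = 6.7e-05), and at 24 hr it was still above 0 hr, by 4.23 ± 0.46 (adjusted p = 7.86e-07) and 3.32 ± 0.42 (adjusted p = 5.61e-06).

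C3, the central component, rose for a shorter time. Control cells had 6.70, 0.198 and 3.79 FPKM at 0 hr, 18.9, 13.1, 14.7, 17.7 and 17.8 at 6 hr, and 5.53, 5.27, 5.84 and 4.53 at 24 hr. WM cells had 4.12, 2.56, 4.83 and 2.55 at 0 hr, 31.7, 21.3, 11.5 and 13.4 at 6 hr, and 3.34, 4.79, 5.10 and 2.74 at 24 hr. Every 6 hr library was above every library of the other times, and the 0 and 24 hr values overlapped. The log2 change from 0 to 6 hr was 2.29 ± 0.38 in control cells (adjusted p = 3.79e-05) and 2.11 ± 0.37 in WM cells (adjusted p = 8.11e-05), and from 6 to 24 hr C3 fell by 1.46 ± 0.35 (adjusted p = 0.00296) and 1.96 ± 0.37 (adjusted p = 0.000793). At 24 hr the difference from 0 hr was 0.83 in control cells (95% interval -0.00 to 1.66, adjusted p = 0.15) and 0.15 in WM cells (-0.62 to 0.92, adjusted p = 0.822). Without control 0 hr replicate 1, the highest of the 3, the former became 1.39 and passed the test (adjusted p = 0.0161).

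C4b was the member that kept rising. Its FPKM in control cells was 1.77, 0.135 and 0.462 at 0 hr, 4.11, 1.63, 2.45, 3.59 and 3.40 at 6 hr, and 9.02, 11.6, 7.85 and 6.32 at 24 hr. In WM cells it was 0.754, 1.03, 0.0476 and 2.31, then 2.95, 3.32, 2.56 and 3.97, then 8.27, 5.20, 9.36 and 9.70. The 24 hr libraries were above all others in both origins, while the lowest control 6 hr library lay under the highest control 0 hr one. C4b rose from 0 to 6 hr by 1.24 ± 0.31 on the log2 scale in control cells (adjusted p = 0.00241) and 1.15 ± 0.30 in WM cells (adjusted p = 0.00383). It rose again from 6 to 24 hr, by 1.28 ± 0.29 (adjusted p = 0.00163) and 1.10 ± 0.30 (adjusted p = 0.014), where C3 and Cfb fell. With a pseudocount of 0.1 FPKM the later rise in WM cells was 1.30 and did not pass the test (adjusted p = 0.15). Between 0 and 24 hr the change was 2.52 ± 0.33 (adjusted p = 7.64e-06) and 2.25 ± 0.30 (adjusted p = 1.13e-05).

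Cfp rose and was still above its 0 hr level at 24 hr in both origins. Control cells had 6.64, 2.48 and 11.7 FPKM at 0 hr, 131, 87.5, 96.0, 125 and 155 at 6 hr, and 113, 96.5, 68.9 and 37.2 at 24 hr. WM cells had 10.9, 18.2, 17.2 and 13.1, then 146, 125, 87.1 and 95.5, then 40.0, 43.4, 89.3 and 26.8. In both origins the libraries after LPS were all above those without it, and the 6 and 24 hr values overlapped. The log2 change from 0 to 6 hr was 4.08 ± 0.37 in control cells (adjusted p = 7.49e-09) and 2.85 ± 0.36 in WM cells (adjusted p = 1.15e-06), and from 0 to 24 hr 3.41 ± 0.39 (adjusted p = 1.56e-06) and 1.57 ± 0.36 (adjusted p = 0.00318). From 6 to 24 hr the difference in control cells was -0.67 (95% interval -1.38 to 0.04, adjusted p = 0.149). In WM cells Cfp fell by 1.28 ± 0.36 (adjusted p = 0.0167), a call that was lost without WM 6 hr replicate 1 (-1.15, adjusted p = 0.0535) and without WM 24 hr replicate 4 (-1.03, adjusted p = 0.0741).

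Of the receptors, C5ar1 changed more than C3ar1. C5ar1 was at 100.4, 103 and 109 FPKM in control 0 hr cells, 994, 1092, 856, 846 and 856 at 6 hr, and 414, 445, 421 and 264 at 24 hr. In WM cells it was 99.7, 113, 120.0 and 128, then 877, 961, 887 and 707, then 557, 766, 503 and 391. Every library after LPS was above every library without it, and the 6 and 24 hr values were apart in control cells and overlapped in WM cells. It was the member with the highest mean FPKM at each time in both origins. The log2 change from 0 to 6 hr was 3.14 ± 0.18 in control cells (adjusted p = 1.03e-11) and 2.89 ± 0.17 in WM cells (adjusted p = 2.79e-11), and from 0 to 24 hr 1.85 ± 0.19 (adjusted p = 3.39e-07) and 2.22 ± 0.17 (adjusted p = 5.19e-09). From 6 to 24 hr C5ar1 fell by 1.29 ± 0.16 in control cells (adjusted p = 4.66e-06) and 0.66 ± 0.17 in WM cells (adjusted p = 0.0106), the second of which did not pass without WM 24 hr replicate 4 (-0.51, adjusted p = 0.0534).

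C3ar1 was at 102, 102 and 89.1 FPKM in control 0 hr cells, 162, 298, 144, 165 and 161 at 6 hr, and 142, 144, 129 and 137 at 24 hr. In WM cells it was 88.7, 91.8, 87.7 and 90.9, then 177, 164, 175 and 133, then 183, 234, 155 and 118. Libraries after LPS were above those without it in both origins, and control 6 hr replicate 2 was far above its group. The log2 change from 0 to 6 hr was 0.87 ± 0.19 in control cells (adjusted p = 0.000711) and 0.84 ± 0.19 in WM cells (adjusted p = 0.000859). At 24 hr C3ar1 remained higher in WM cells, by 0.89 ± 0.19 (adjusted p = 0.00132), and the control difference of 0.50 (95% interval 0.08 to 0.91) did not pass (adjusted p = 0.0817). That control value lies close to the threshold and passed in 3 other fits, named with the other alternatives. Between 6 and 24 hr control cells differed by -0.38 (95% interval -0.74 to -0.01, adjusted p = 0.113). Without control 6 hr replicate 2, the far library, that difference would be smaller in size.

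**Figure D2:**
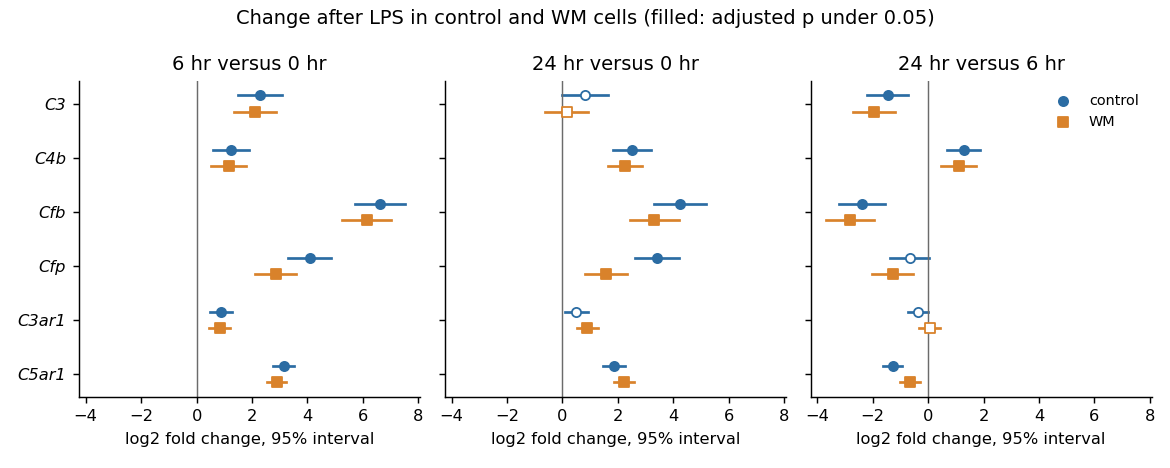
Log2 fold change of log2(FPKM + 1) with its 95% interval for 6 complement genes between times after LPS, in control (circles) and WM (squares) cells, filled where the adjusted p is under 0.05. All 12 values are above 0 at 6 hr, and from 6 to 24 hr C4b rose where C3 and Cfb fell.

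Counted over the 6 tested members, 4 were higher at 24 hr than at 0 hr in control cells (21.3% of all tested genes changed) and 5 in WM cells (18.8%). From 6 to 24 hr, 1 rose and 3 fell in control cells (28.3%), and 1 rose and 4 fell in WM cells (15.7%). C2 and Serping1, tested alone by an exact 2-sided permutation test of mean FPKM, passed in no pair of times or origins (p from 0.171 to 1). The smallest p that 4 against 4 libraries allow is 0.0286. With 3 against 4 libraries no p under 0.05 is possible. Neither gene could therefore pass between control 0 hr and WM 0 hr, or between control 0 hr and control 24 hr. With at most 27 reads a library for C2 and 12 for Serping1, small changes in either could not be detected at this depth.

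Markers of other cells moved with time too. The summed FPKM of 4 monocyte markers (Ccr2, Ly6c2, Chil3 and Plac8), none of which was at 0 in any library, ran from 100.5 to 324 in control 0 hr libraries, from 1141 to 2266 at 6 hr and from 426 to 541 at 24 hr. In WM libraries it ran from 122 to 384, from 1146 to 3185 and from 126 to 649. The 6 hr libraries were above all others in both origins. The means of C3, Cfb, Cfp and C5ar1 were also highest at 6 hr in both, and the part of this list in their rise was not tested. The 7 neutrophil markers (S100a8, S100a9, Ly6g, Camp, Ngp, Retnlg and Mmp8, of which Ly6g was at 0 in 6 libraries) went another way, with control sums of 1782 to 8707 at 0 hr, 893 to 5673 at 6 hr and 6308 to 15234 at 24 hr, and WM sums of 2805 to 10581, 431 to 10080 and 3138 to 7123. With that sum as a covariate, all 6 members passed as higher at 6 hr in both origins, with C3 at 2.59 in control (adjusted p = 9.38e-07) and 2.71 in WM cells (adjusted p = 1.97e-06). The sum itself varied with time, so the fit cannot set its part apart, which was not tested. Within control 0 hr cells, the library with the lowest neutrophil sum, replicate 2, also had the lowest C3, C4b and Cfp, and the highest Cfb. The 5 choroid plexus markers (Ttr, Folr1, Kl, Clic6 and Kcnj13) summed to between 283 and 740 FPKM in WM libraries at 0 hr, 162 and 610.3 at 6 hr and 12.2 and 32.6 at 24 hr, and to between 76.5 and 222, 99.8 and 1372, and 36.3 and 55.9 in control libraries. At 24 hr 4 of the 5 were lower than at 0 hr (18.8% of all tested genes passed) and 5 of 5 lower than at 6 hr (15.7%) in WM cells. In control cells 0 (21.3%) and 3 (28.3%) were lower. This sum was mostly Ttr, with a median of 156 FPKM over the table's libraries, against 4.38 or less for the other markers. Of 4 tested border-associated macrophage markers, 3 were lower at 6 hr than at 0 hr in control cells (42.5% of all tested genes passed) and 2 in WM cells (38.8%). Their sums were 31.7 to 99.3 and then 10.4 to 22.3 in control and 17.8 to 27.6 and then 7.65 to 10.8 in WM libraries. The part of either list in the members' values was not tested. The microglial markers fell in sum from between 20396 and 23802 in control 0 hr cells to between 7053 and 9402 at 6 hr.

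The second question of this table is whether cells of WM repopulation differ from control cells. None of the 6 tested members passed the test at 0 hr (1.21% of all tested genes did, 154 in number), at 6 hr (0.323%) or at 24 hr (3.97%), while 1514, 1164 and 2238 genes had an unadjusted p under 0.05. At 6 hr the 6 log2 differences lay between -0.15 and 0.19, and their 95% intervals between -0.77 and 1.01, so differences of more than about that size in either direction lie outside the intervals. The largest differences were those of Cfp, 1.16 at 0 hr (95% interval 0.36 to 1.96, adjusted p = 0.172) and -0.67 at 24 hr (-1.42 to 0.07, adjusted p = 0.34). The 0 hr value would be smaller without control 0 hr replicate 2, the lowest of its group in Cfp. At 24 hr C5ar1 differed by 0.51 (0.15 to 0.87, adjusted p = 0.104). Without WM 24 hr replicate 4, the lowest of its group, that value became 0.66 and passed (adjusted p = 0.0341). At 0 hr the summed FPKM of 5 marker lists did not overlap between the groups. Choroid plexus markers were higher in WM libraries (283 to 740, against 76.5 to 222 in control). Those of border-associated macrophages (17.8 to 27.6 against 31.7 to 99.3), endothelium (2.28 to 5.19 against 8.24 to 12.9), astrocytes (38.1 to 52.5 against 55.6 to 61.7) and oligodendrocytes (28.1 to 31.3 against 31.5 to 38.7) were lower. At 24 hr, where C5ar1 is described above, 3 lists did not overlap and all were lower in WM libraries. These were the markers of choroid plexus (12.2 to 32.6 against 36.3 to 55.9), which had been higher at 0 hr, of border-associated macrophages (9.32 to 18.2 against 32.7 to 39.8) and of endothelium (1.32 to 7.15 against 7.59 to 12.6). The sums of choroid plexus, astrocytes, endothelium and oligodendrocytes rested mostly on a single gene of each list. Over the 24 libraries the median FPKM was 156 for Ttr, 47.5 for Slc1a3, 6.16 for Pecam1 and 18.9 for Mag. The next markers of those lists had medians of 4.38, 3.44, 0.304 and 6.21. The part of any of these lists in the members' values was not tested.

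**Figure D3:**
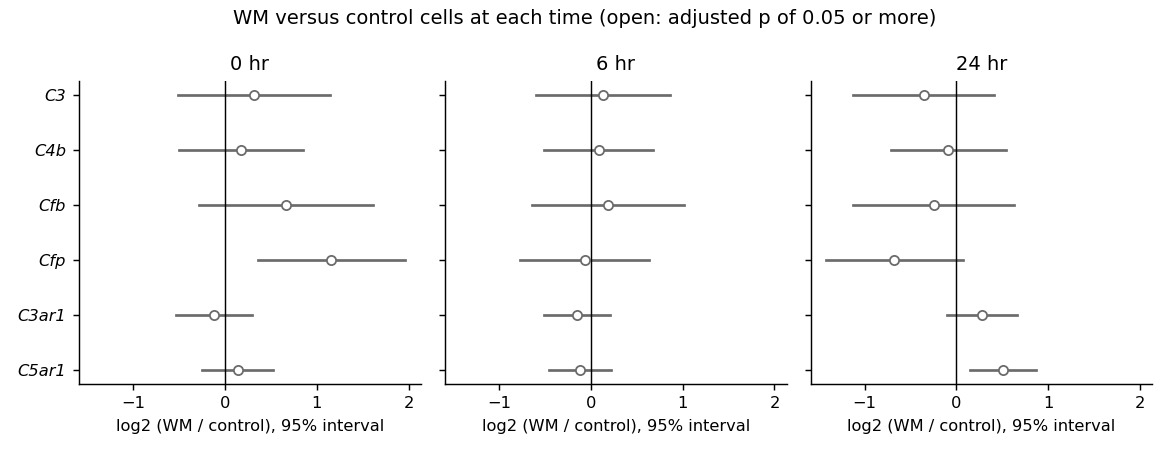
Log2 difference of WM from control cells (log2 of FPKM + 1) with its 95% interval for 6 complement genes at 0, 6 and 24 hr after LPS. All points are open, since no adjusted p was under 0.05.

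The difference between the LPS responses of WM and control cells was tested as an interaction, and no member passed at 6 hr (0.0237% of all tested genes passed), at 24 hr (0.0867%) or from 6 to 24 hr (0.158%), where 913, 1105 and 1208 genes had an unadjusted p under 0.05. Cfp had the largest differences, with a response in WM cells that was -1.23 at 6 hr (95% interval -2.30 to -0.16, adjusted p = 0.649) and -1.83 at 24 hr (-2.93 to -0.74, adjusted p = 0.217) relative to control cells on the log2 scale. Both would be smaller in size without control 0 hr replicate 2, the lowest of its group in Cfp. For C5ar1 the change from 6 to 24 hr differed by 0.62 (0.13 to 1.12, adjusted p = 0.397). These intervals leave room for differences of 1 or more on the log2 scale in several members.

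Of 46 other complement genes, 26 were listed in the WM and LPS table and 19 tested. At 6 hr after LPS 1 was higher and 3 were lower in control cells, and 3 were higher and 1 lower in WM cells, with a median log2 change over the 19 of 0.07 and -0.08 (42.5% and 38.8% of all tested genes passed). C1qc, a chain of the recognition molecule C1q, fell by 0.70 ± 0.17 in control (adjusted p = 0.00149) and 0.61 ± 0.16 in WM cells (adjusted p = 0.00429). C5ar2, the other C5a receptor, fell by 0.88 ± 0.35 in control cells (adjusted p = 0.0439), where C5ar1 rose, and differed by -0.32 ± 0.34 in WM cells, which did not pass (adjusted p = 0.477). C1rl rose by 0.80 ± 0.18 (adjusted p = 0.00107) and 0.58 ± 0.18 (adjusted p = 0.0108). At 24 hr 3 genes were higher and 1 lower than at 0 hr in control cells (21.3% of all tested genes passed). In WM cells 0 were higher and 2 lower (18.8%), among them Clu, the fluid regulator clusterin, which fell by 2.57 ± 0.39 (adjusted p = 4.44e-05). Between 6 and 24 hr, 3 rose and 1 fell in control cells (28.3% of all tested genes passed), and 2 rose and 1 fell in WM cells (15.7%). None of the 19 passed the test between WM and control cells at any of the 3 times, or in the interactions.

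Over the 24 libraries of this table, the genes most like each member were found by Pearson r on log2(FPKM + 1), a description in which the LPS times dominate. C3 was most like Hp (r = 0.960) and Anxa2 (r = 0.951), Cfb most like Zbp1 (r = 0.982) and Plin2 (r = 0.977), and C5ar1 most like Gcnt2 (r = 0.977) and Slfn2 (r = 0.970). For Cfp the nearest were Gm5150 (r = 0.959) and Ifitm2 (r = 0.951), and for C3ar1 they were Peli1 (r = 0.937) and Trex1 (r = 0.935). C4b had the weakest partners, Ybx1 (r = 0.872) and Ccl2 (r = 0.863). None of these partners was itself a member.

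The SVZ table asks what happens to these genes in tissue when microglia are removed and begin to return. Both receptors fell to near 0 on PLX3397 and C4b rose, while C3, Cfb, C2, Cfp and Serping1 gave no difference that passed a test. In bulk tissue, fewer cells of a type and less RNA per cell cannot be told apart. C3 and C3ar1 were under the limit of 1 FPKM in 3 libraries and C5ar1 met it only through control libraries. C5ar1 could therefore enter the fit only by being high in control, so no value of that fit is given for it, and it had the exact test that C3ar1 had. Of the 5 other tested members, 1, C4b, passed at 14 days of PLX3397 against control tissue (1.26% of 14151 tested genes passed in either direction) and 0 passed at recovery against control (1.27%) or against PLX3397 (0.325%).

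C5ar1 was at 1.18, 0.936, 1.30, 1.07 and 1.23 FPKM in the control libraries, at 0, 0, 0.0378, 0 and 0 after 14 days of PLX3397, and at 0.289, 0.567, 0.447, 0.523 and 0.296 at 5 day recovery. The 3 groups did not overlap, with recovery between the others. The PLX3397 libraries held 1 C5ar1 read in all against 91 in control, a ratio of 134 after division by the reads of each group (exact 95% interval 23.5 to 5352, counting error only). The exact 2-sided permutation test of mean FPKM gave p = 0.00794 for each of the 3 pairs of groups, the smallest that 5 against 5 allows. The 2 neutrophil markers listed for this tissue, S100a8 and S100a9, summed to between 0.558 and 3.17 FPKM in control, 0 and 4.22 on PLX3397 and 1.71 and 15.01 at recovery, and their part in the C5ar1 values was not tested.

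C3ar1 was at 0.904, 1.02, 0.854, 1.20 and 0.880 FPKM in control tissue, 0.104, 0.110, 0.0904, 0.122 and 0.211 on PLX3397, and 0.130, 0.254, 0.133, 0.289 and 0.0590 at 5 day recovery. All 10 libraries of the latter 2 groups were under all control libraries, and those groups overlapped each other. The exact 2-sided permutation test gave p = 0.00794 for each against control, the smallest that 5 against 5 allows, and p = 0.333 between PLX3397 and recovery. In reads divided by depth, control was 8.07 times PLX3397 (exact 95% interval 5.15 to 13.2) and 5.31 times recovery (3.56 to 8.15), while for C5ar1 control was 2.64 times recovery (1.83 to 3.87). At recovery C3ar1 rested on 2 to 12 reads a library, and whether it differed from C5ar1 in its change from PLX3397 was not tested.

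Microglial markers were also lower on PLX3397. Their 9 genes summed to between 203 and 271 FPKM in control, 16.04 and 19.4 on PLX3397 and 25.8 and 33.0 at recovery, and the 3 groups did not overlap. The 4 listed border-associated macrophage markers summed to between 3.48 and 7.39 FPKM in control, 1.18 and 2.45 on PLX3397 and 1.22 and 2.97 at recovery, so that control lay above the other groups, which overlapped. The part of either list in the receptors' values was not tested. Csf1r was at 38.8, 0.163 and 1.52 FPKM in group mean. Over the 15 SVZ libraries the 2 genes most like C5ar1 were Fcer1g (r = 0.978) and C1qa (r = 0.978), a description of 3 separate groups.

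**Figure D4:**
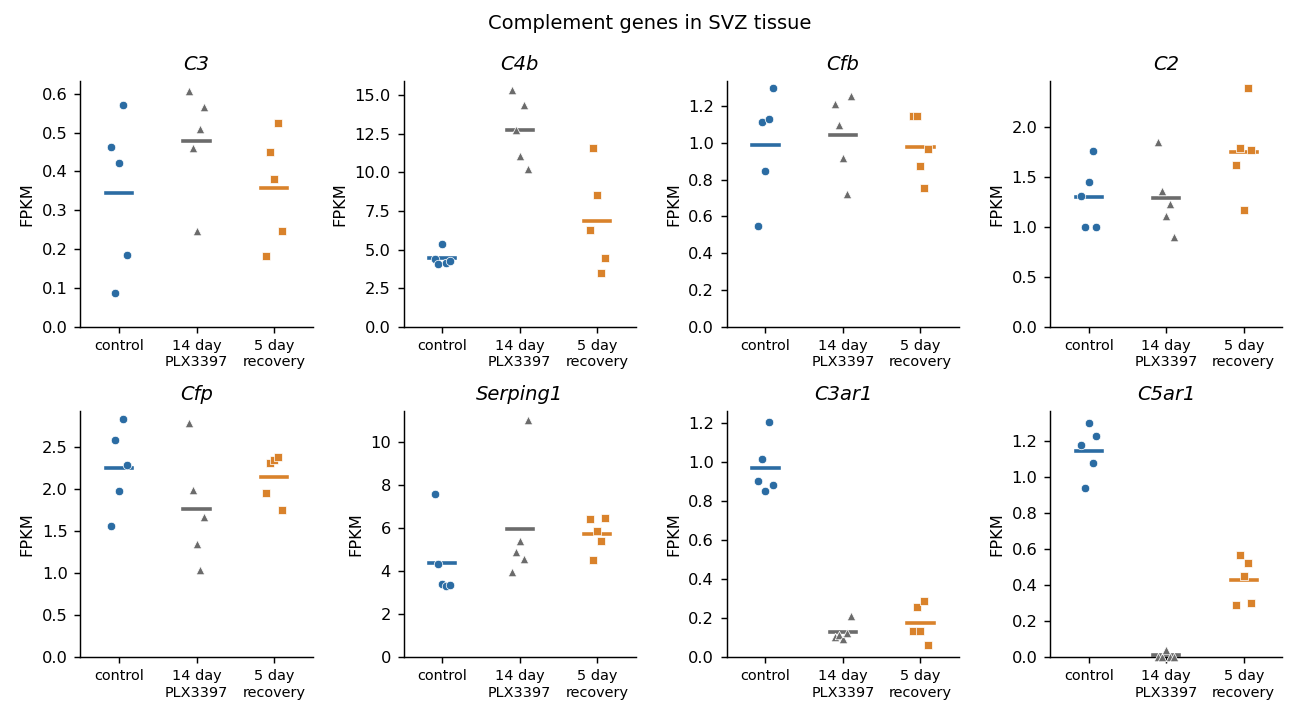
FPKM of the 8 complement genes in each SVZ library (axes from 0) for control (circles), 14 day PLX3397 (triangles) and 5 day recovery (squares), with group means as bars. C5ar1 and C3ar1 are near 0 on PLX3397 and C4b is higher than in control.

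C4b went the other way. It was at 4.40, 4.05, 5.35, 4.13 and 4.27 FPKM in control tissue, 15.3, 12.8, 11.04, 14.4 and 10.2 on PLX3397, and 6.24, 11.6, 8.55, 3.51 and 4.46 at 5 day recovery. Every PLX3397 library was above every control library, and the recovery libraries spread over both ranges. The log2 change on PLX3397 was 1.33 ± 0.21 (adjusted p = 0.00139), one of 8 genes that were higher among the 179 that passed. At 5 day recovery C4b differed from control by 0.44 (95% interval -0.01 to 0.89, adjusted p = 0.315) and from PLX3397 by -0.89 (-1.34 to -0.44, adjusted p = 0.0979). The latter passed without recovery replicate 2, the highest of its group (-1.08, adjusted p = 0.0142). Without that library the difference from control would be smaller. In control tissue C4b (4.44 ± 0.526 FPKM, SD, n = 5) and Serping1 (4.39 ± 1.84) were the most abundant members per length and did not differ beyond their spread.

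Of 7 astrocyte markers, 1 was higher than in control on PLX3397 and 1 at recovery (1.26% and 1.27% of all tested genes passed). This was Gfap, an intermediate filament of astrocytes, which averaged 62.0 FPKM in control, 135 on PLX3397 and 168 at recovery. The list summed to between 1201 and 1644 FPKM in control, 1559 and 1711 on PLX3397 and 1691 and 2618 at recovery. Gfap and C4b were both higher on PLX3397, and at recovery the mean of C4b was lower and that of Gfap higher than on PLX3397; any part of astrocytes in the values of C4b was not tested.

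The other members gave no SVZ difference that passed a test. Serping1 was at 7.59, 4.32, 3.39, 3.32 and 3.35 FPKM in control, 3.97, 4.87, 5.39, 4.54 and 11.1 on PLX3397 and 6.43, 4.54, 5.86, 5.40 and 6.48 at recovery, with 1 far library in each of the first 2 groups. Its log2 difference on PLX3397 was 0.35 (95% interval -0.13 to 0.82, adjusted p = 0.985). Control replicate 1, the high one, also held 21648 FPKM of 5 choroid plexus markers, where the other control libraries held 23.8 to 129. Without it the Serping1 difference was 0.53 (adjusted p = 0.619). Without PLX3397 replicate 5, the far library of the other group, that difference would be smaller. Cfp averaged 2.24 ± 0.501, 1.76 ± 0.670 and 2.14 ± 0.279 FPKM (SD, n = 5), C2 averaged 1.30 ± 0.326, 1.29 ± 0.359 and 1.75 ± 0.435, and Cfb averaged 0.989 ± 0.294, 1.04 ± 0.221 and 0.980 ± 0.173. C3 stayed between 0.0852 and 0.607 FPKM in all 15 libraries, on 2 to 28 reads, with exact permutation p-values of 0.246, 0.921 and 0.206 for the 3 pairs of groups.

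Of the other 46 complement genes, 23 were listed in the SVZ table and 16 tested, not counting Itgam, which met the limit in control libraries alone. On PLX3397 4 were lower and 0 higher (1.26% of all tested genes passed). The median log2 change was -0.05 over the 16, beside 0.01 over all tested genes. The 3 chains of C1q fell furthest: C1qa averaged 80.6 ± 11.8 FPKM in control, 0.116 ± 0.130 on PLX3397 and 4.41 ± 1.04 at recovery (SD, n = 5). C1qb and C1qc were also lower on PLX3397, as was Itgb2, a subunit of complement receptor 3. At recovery all 4 were still lower than in control and higher than on PLX3397. Itgb2 ran from 2.11 to 3.63 FPKM in control, 0 to 0.190 on PLX3397 and 0.521 to 1.11 at recovery, so it too met the limit mostly through control libraries. Itgam, the other subunit, ran from 2.67 to 3.81, 0 to 0.155 and 0.108 to 0.337, with control above both other groups. At recovery C1qa was lower than in control, with a log2 change of -3.93 ± 0.14 (adjusted p = 9.57e-12).

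In the GLOBAL table no member and no gene of 16651 passed the test (0.00%), while 1504 genes had an unadjusted p under 0.05. The 7 tested members had a median log2 difference of -0.22, beside 0.01 over all tested genes, and none passed. C3 was at 36.8, 22.3, 8.59 and 6.78 FPKM in control libraries and 13.1, 9.46 and 3.27 in GLOBAL libraries, which overlapped (-0.90, 95% interval -2.11 to 0.30, adjusted p = 0.637). Cfp was at 23.01, 10.1, 10.5 and 9.32 against 10.2, 6.11 and 4.02 (-0.86, -1.59 to -0.12, adjusted p = 0.498). C5ar1 was at 85.6, 80.1, 70.1 and 57.9 against 52.0, 57.3 and 55.0, with no overlap (-0.40, -0.74 to -0.07, adjusted p = 0.492). With replicate number as a block, C3 passed (-1.25, adjusted p = 0.0358) and was the only member to do so. Without control replicate 1, or without GLOBAL replicate 3, the C3 difference of the main fit would be smaller in size.

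C3ar1 was at 57.2, 65.8, 62.9 and 46.4 FPKM in control and 52.3, 54.2 and 54.5 in GLOBAL cells. C4b averaged 3.51 ± 1.60 (SD, n = 4) and 2.77 ± 0.843 (n = 3), Cfb 3.29 ± 1.46 and 2.62 ± 0.354, C2 1.08 ± 0.508 and 0.795 ± 0.471, and Serping1, under the limit, 0.762 ± 0.180 and 0.686 ± 0.522 (exact permutation p = 0.857). Those groups overlapped for each of the 5 genes. With 4 against 3 libraries the permutation test of Serping1 could not give a p under 0.05. Of the 46 other complement genes, 40 were listed and 28 tested here, with 0 passing and a median log2 difference of -0.18.

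The 7 neutrophil markers differed widely between these libraries, with sums of 22613, 13760, 2513 and 2102 FPKM in control replicates 1 to 4 and 4572, 2734 and 1266 in GLOBAL replicates 1 to 3. Within each group C3 came in the same order as this sum. With the sum as a covariate the C3 difference was 0.00 (adjusted p = 1), and those of Cfp and C5ar1 were -0.45 (adjusted p = 0.77) and -0.26 (adjusted p = 0.75). The median neutrophil sum was 8136.5 FPKM in control and 2734 in GLOBAL libraries. The covariate fit therefore cannot set the part of neutrophils apart, which was not tested. The 4 monocyte markers summed to between 160.4 and 899.6 FPKM in control and between 94.5 and 295 in GLOBAL libraries. Of the other lists, 4 did not overlap between the groups and were lower in GLOBAL libraries, as was C5ar1, whose difference did not pass the test. These were the markers of border-associated macrophages (13.7 to 16.95 against 23.4 to 32.1 FPKM in control), endothelium (7.57 to 11.7 against 15.04 to 22.4), astrocytes (25.3 to 29.6 against 31.6 to 33.8) and neuroblasts and stem cells (2.80 to 3.13 against 3.601 to 4.07). The astrocyte and endothelial sums rested mostly on single genes, with median FPKM of 24.2 for Slc1a3 and 9.78 for Pecam1. The next markers, Aldoc and Cldn5, had medians of 2.54 and 3.75. The part of any of these lists in the members' values was not tested.

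**Figure D5:**
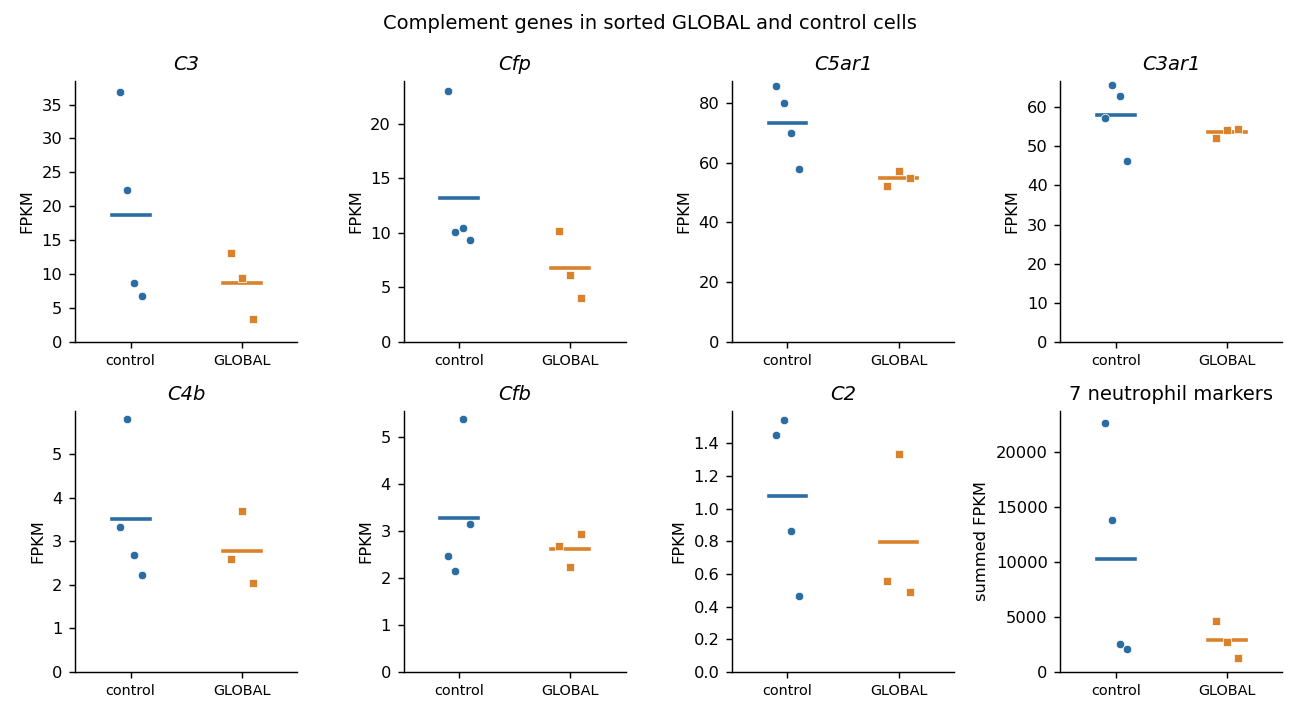
FPKM of 7 complement genes and the summed FPKM of 7 neutrophil markers in each sorted library of the GLOBAL table (axes from 0), with control as circles, GLOBAL as squares and group means as bars. C3 and the neutrophil sum are highest in the same 2 control libraries.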

How the data were processed

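Bulk RNA-seq was measured in 46 mouse libraries, and the authors deposited FPKM values in 3 tables, normalised separately. Per the labels, STAR, featureCounts, edgeR and limma were used with build mm10, without versions. The study's methods give Smart-seq2 and Nextera libraries and paired-end 43 bp reads, while the labels describe another library protocol, the same for all samples, so the protocol behind these values is uncertain. Strand of counting is not given in the sources used here. Uneven coverage of full-length amplified RNA would enter FPKM unseen.

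Samples were grouped by their labels. Limma 3.58.1 (R 4.3.3) was fitted to log2(FPKM + 1), pseudocount 1 FPKM, with all groups of a table in 1 fit and a trend of variance on expression, on genes at 1 FPKM or more in at least 3 libraries (14151, 12684 and 16651 genes). Benjamini-Hochberg adjusted p under 0.05 was called, over all genes tested in each comparison. Members under the limit, and C5ar1 in the SVZ, which met it in control libraries alone, were tested by an exact 2-sided permutation test of mean FPKM. Listed genes that met it in 1 group alone were not counted as tested. Depth came from the value of 1 read in each library; 95.2% (SVZ), 99.8% (WM and LPS) and 97.1% (GLOBAL) of the low genes lay within 0.02 reads of a whole number. Intervals of read ratios (95%) cover counting error only. The values are FPKM and not counts, so no count model was used.

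On simulated data, log2 changes of 1 and 2 were recovered for 92% and 100% of changed genes for SVZ 14 day PLX3397 against control (14151 genes), 75% and 97% for control 6 hr against 0 hr (12684 genes), and 51% and 87% for GLOBAL against control (16651 genes). False calls numbered 12, 18 and 7. The changed genes all had a mean log2(FPKM + 1) over 2, with noise drawn independently. The shares therefore do not cover lower members, such as Cfb, C2 and Cfp in the SVZ. Alternatives were a pseudocount of 0.1, no filter, quantile normalisation, no trend, only the groups compared, a replicate block and leaving out each library. Leaving out the 2 libraries least like their groups, and a neutrophil covariate, were added after seeing the data. From the lists, 1 pathway gene and 1 monocyte marker are not reported here and enter no count or sum. Members and lists were chosen with earlier results of these data known. Named beside the members were the pathway genes that passed the test and, for each member, the 2 genes of highest Pearson r. Promoters came from a table of RefSeq promoters (GRCm38.p6) in which 4 of the 8 members were matched. Python 3.11.15, numpy 2.4.6, pandas 2.3.3, scipy 1.17.1 and matplotlib 3.10.9 were used.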

Additional observations from a re-analysis of the deposited data

Results flagged for a closer look

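In each group of 4 to 10 libraries the highest or lowest library of a member was compared with the rest by Dixon's test at the 95% level, and 11 of 72 groups had a far library, where chance gives about 1 in 20. In the SVZ these were C4b in control replicate 3 (5.35 FPKM), Serping1 in control replicate 1 (7.59 FPKM) and in PLX3397 replicate 5 (11.1 FPKM), C3ar1 in PLX3397 replicate 5 (0.211 FPKM) and C5ar1 in PLX3397 replicate 3 (0.0378 FPKM). C3ar1 in PLX3397 replicate 5 rested on 5 reads and C5ar1 in PLX3397 replicate 3 on 1 read.

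In the WM and LPS table C3ar1 was far above its group in control 6 hr replicate 2 (298 FPKM), the library that correlated least with its group. C2 was far above in control 6 hr replicate 5 (0.867 FPKM), control 24 hr replicate 2 (1.03 FPKM) and WM 0 hr replicate 2 (1.62 FPKM), and Serping1 in control 24 hr replicate 2 (0.569 FPKM). In the GLOBAL table Cfp was far above its group in control replicate 1 (23.01 FPKM), the library with the highest neutrophil sum. All 11 were the highest of their groups.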

How the results depend on the processing

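Of the calls on members, 492 values under the alternatives kept their direction and passed the test, 4 kept their direction without passing and 0 turned. Of the members named without a call, 276 stayed without one, 9 passed and 1 turned: C3 in GLOBAL against control, at 0.000203 with the neutrophil covariate. With no filter, where the SVZ receptors enter the fit whatever their level in control, the called members went from 1 to 3 on PLX3397 against control and from 0 to 2 at recovery against control, in both by adding C3ar1 and C5ar1, and from 0 to 1, C5ar1, at recovery against PLX3397. Leaving out a library, the last ranged from 0 to 1, which was C4b without recovery replicate 2. WM 24 hr against control 24 hr ranged from 0 to 1 and WM 24 hr against WM 6 hr from 3 to 5, where the values of 1 and 3 came without WM 24 hr replicate 4. The causes were not tested.

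Deviations of same-numbered libraries from their group means correlated with a median r of 0.0539 in SVZ (-0.155 to 0.486), -0.00106 in WM and LPS (-0.190 to 0.266) and 0.102 in GLOBAL (0.0562 to 0.137), against medians of -0.00713, -0.00368 and -0.0411 (-0.141 to 0.0910 in GLOBAL) for different numbers. Since r was not over 0.1 in every same-numbered pair of any table, the numbers were not taken to pair the libraries. In GLOBAL all 3 same-numbered r were above 0, though control replicate 3 correlated more with GLOBAL replicate 2 (0.0910) than with GLOBAL replicate 3, and whether the numbers mark a shared day or batch there is not known. With the replicate block the called genes went from 46 to 32 in SVZ recovery against PLX3397 and from 0 to 55 in GLOBAL, where 1 member, C3, was called, and C3ar1 at control 24 hr against 0 hr passed (0.56, adjusted p = 0.0339). That value also passed without the 2 libraries least like their groups (adjusted p = 0.03) and with only the groups compared (adjusted p = 0.0262). C3ar1 at control 24 hr against 6 hr passed with quantile normalisation (-0.38, adjusted p = 0.0492) and with the neutrophil covariate (-0.58, adjusted p = 0.0284). The main value would be smaller in size without control 6 hr replicate 2, the far library of C3ar1.

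Counts over all genes moved by more than 1.5 times as follows. With only the groups compared they went from 46 to 29 (SVZ recovery against PLX3397), 41 to 16 and 503 to 255 (WM against control at 6 and 24 hr), and 3 to 0 and 11 to 17 (interactions at 6 and 24 hr). With a pseudocount of 0.1 the 3 interactions went from 3, 11 and 20 to 1, 6 and 9, and with the block the first 2 went to 0 and 6. Without the 2 libraries least like their groups, WM against control at 0 hr went from 154 to 348 and the interactions at 6 and 24 hr to 0 and 53. Leaving out 1 library moved SVZ recovery against control from 180 to 330 (without recovery replicate 3) and SVZ recovery against PLX3397 to between 23 and 86. It moved WM against control to as few as 75 (0 hr), to between 23 and 75 (6 hr) and to as few as 291 (24 hr), the interactions to as few as 0, 6 and 10 and at 24 hr to as many as 24, and GLOBAL from 0 to 1. Depth limits C2 and Serping1 in sorted cells (at most 27 and 12 reads a library) and the receptors in SVZ on PLX3397 (at most 5 reads).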

Other observations

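In the SVZ, members other than C5ar1 had partners among genes with no shared list. Over the 15 libraries C2 was most like Ahi1 (Pearson r = 0.939) and 1700094D03Rik (r = 0.932), Serping1 most like Efemp1 (r = 0.865) and Myl6b (r = 0.861), and C4b most like Cdkl1 (r = 0.831) and Bud13 (r = 0.823). The nearest genes to Cfb were Dand5 (r = 0.766) and Bcl2l13 (r = 0.758), and to Cfp they were Cdc73 (r = 0.739) and Wdr82 (r = 0.738). These are descriptions over 3 groups of 5 libraries, with no test.

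At 5 day recovery the SVZ libraries also held more erythrocyte RNA, with 4 listed haemoglobin and erythroid genes summing to between 91.3 and 336 FPKM against 32.4 to 79.3 in control and 41.8 to 57.9 on PLX3397, beside C4b and C5ar1 levels between those of the other groups. Its part in those levels was not tested.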
